A study of Oryctolagus cuniculus with 24 samples.

Results

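The genes described here are 10 components of the recognition of bacterial lipopolysaccharide (LPS) and of other microbial ligands by Toll-like receptors: CD14, LY96, TLR2, TLR3, TLR4, TLR5, TLR6, MYD88, IRAK4 and TRAF6. They were chosen by symbol, as every non-control probe of the array that carries one of these names, and the probes of a gene were averaged. These are 10 of the 28870 genes measured. Of those, 9505 carry a gene symbol and the rest are counted under another identifier, so that a gene can be counted more than once. Peripheral blood mononuclear cells (PBMCs) of 4 animals were isolated from heparinised blood on a ficoll gradient. The animals were adult New Zealand White females, called rabbits 1, 2, 4 and 5 here as in the labels. The cells of each rabbit were mock-stimulated with buffer without agents, stimulated with 1 µg/mL LPS, or stimulated with 10 ng/mL phorbol myristate acetate (PMA) plus 1 µg/mL ionomycin, which activate protein kinase C and raise intracellular calcium. RNA was taken at 4 h (T4) and at 24 h (T24), which gave 6 groups of 4 arrays and 24 arrays in all. The same 4 animals stood in every group, so the replicates were animals and each group could be compared within an animal.

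LPS is carried to CD14, an anchored or soluble protein of monocytes and macrophages that has no signalling domain of its own. CD14 passes LPS to the complex of TLR4 and its co-receptor LY96 (also called MD-2), and the complex recruits the adaptor MYD88, which assembles the kinase IRAK4 and, further down, the ubiquitin ligase TRAF6 towards NF-kB and MAP kinases. TLR2, paired with TLR6 or TLR1, recognises bacterial lipopeptides, TLR5 recognises flagellin, and TLR3 recognises double-stranded RNA in endosomes and signals through TICAM1 rather than MYD88.

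The values are log2 median spot signals minus the median of the array, termed levels below. A level of 0 is therefore the median signal of that array, and levels are compared between groups for the same gene and never between genes. A difference between group means was tested with limma over all genes, and a gene was called differentially expressed (DE) at a Benjamini-Hochberg adjusted p below 0.05.

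The 10 genes were read by 21 probes of 60 bases, of which 15 were well above background on all 24 arrays. Those 15 belonged to 7 of the genes, that is CD14, LY96, TLR2, TLR4, MYD88, IRAK4 and TRAF6. Sequences of several probes on which the results below rest are shown so that their values can be traced to the stretch of transcript that was hybridised. The CD14 probe lay at chr3:22754641-22754700 of oryCun2 on the minus strand. The TLR4 and MYD88 probes, whose position was not given, were as follows.
TLR4: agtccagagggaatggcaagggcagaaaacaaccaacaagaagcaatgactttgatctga
MYD88: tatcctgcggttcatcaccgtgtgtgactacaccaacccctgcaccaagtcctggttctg

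LY96 was read by 5 overlapping probes within chr3:89764940-89773375 on the plus strand, so that their values are not independent measurements of the gene. The probe over chr3:89772432-89773312 spans an intron, and it shares the 27 bases in capitals with the probe at chr3:89773286-89773345.
LY96 across the intron: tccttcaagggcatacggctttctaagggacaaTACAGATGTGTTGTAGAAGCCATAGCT
LY96 in the exon: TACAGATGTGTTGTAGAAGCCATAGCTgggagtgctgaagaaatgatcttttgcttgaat

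The 3 slides of 8 arrays each carried all 6 groups, and 51.4 to 62.3% of spots per array were well above background. The cells were checked against marker genes of the cell types a PBMC preparation can hold. Among the 9 monocyte markers measured, the summed log2 level lay at 4.69 to 5.83 in the 4 mock-stimulated arrays at T4 and at 6.98 to 8.16 at T24. B cell markers were present, with a summed log2 level of 8.29 to 9.54 in mock-stimulated cells at T4, while CD4 and CD28 were, by most of their probes, not well above background in most groups. In these bulk samples, fewer cells of a type and less RNA per cell cannot be told apart, and this holds for every difference below.

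LPS lowered 2 of the 10 genes at T4, CD14 and MYD88, and raised none, while 1.03% of all genes were DE in either direction and 0.97% were lowered. At T24, LPS changed 0 of the 10 by limma, against 1.22% of all genes, with an unadjusted p under 0.05 for 2 of them, TRAF6 (0.0112) and TLR6 (0.042). PMA-Ionomycin at T4 lowered CD14, TLR2 and TLR3 and raised TRAF6, which made 4 of 10 against 22.8% of all genes (13.5% raised and 9.35% lowered). At T24 it lowered 6 of 10, namely CD14, LY96, TLR2, TLR3, TLR6 and MYD88, against 33.6% of all genes in either direction and 11.5% lowered. The median log2 difference over the 10 genes was -0.61 in that comparison and 0.03 over all genes, and it was -0.3 against 0.06 for LPS at T4. From T4 to T24 in mock-stimulated cells CD14, LY96, TLR6 and MYD88 were called higher and none of the 10 lower, against 12.5% of all genes in either direction and 7.41% that rose. That fit did not pair the animals. With the rabbit as a block further members passed, TLR4 among them as a fall (-0.87, adjusted p = 0.00427, limma). These shares are over all genes, dim ones included. With dim probes left out, which left 8 of the 10 genes to test, 4 of 8 were DE with PMA-Ionomycin at T4 against 39% of the genes tested and 5 of 8 at T24 against 55.5%, so that the members' share was near that of the genes with signal. For LPS at T4 it was 2 of 8 against 2.48%, for LPS at T24 0 of 8 against 2.59%, and from T4 to T24 in mock-stimulated cells 4 of 8 against 21.8%. Both stimulations at one time were compared with the same mock-stimulated arrays.

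**Figure D1:**
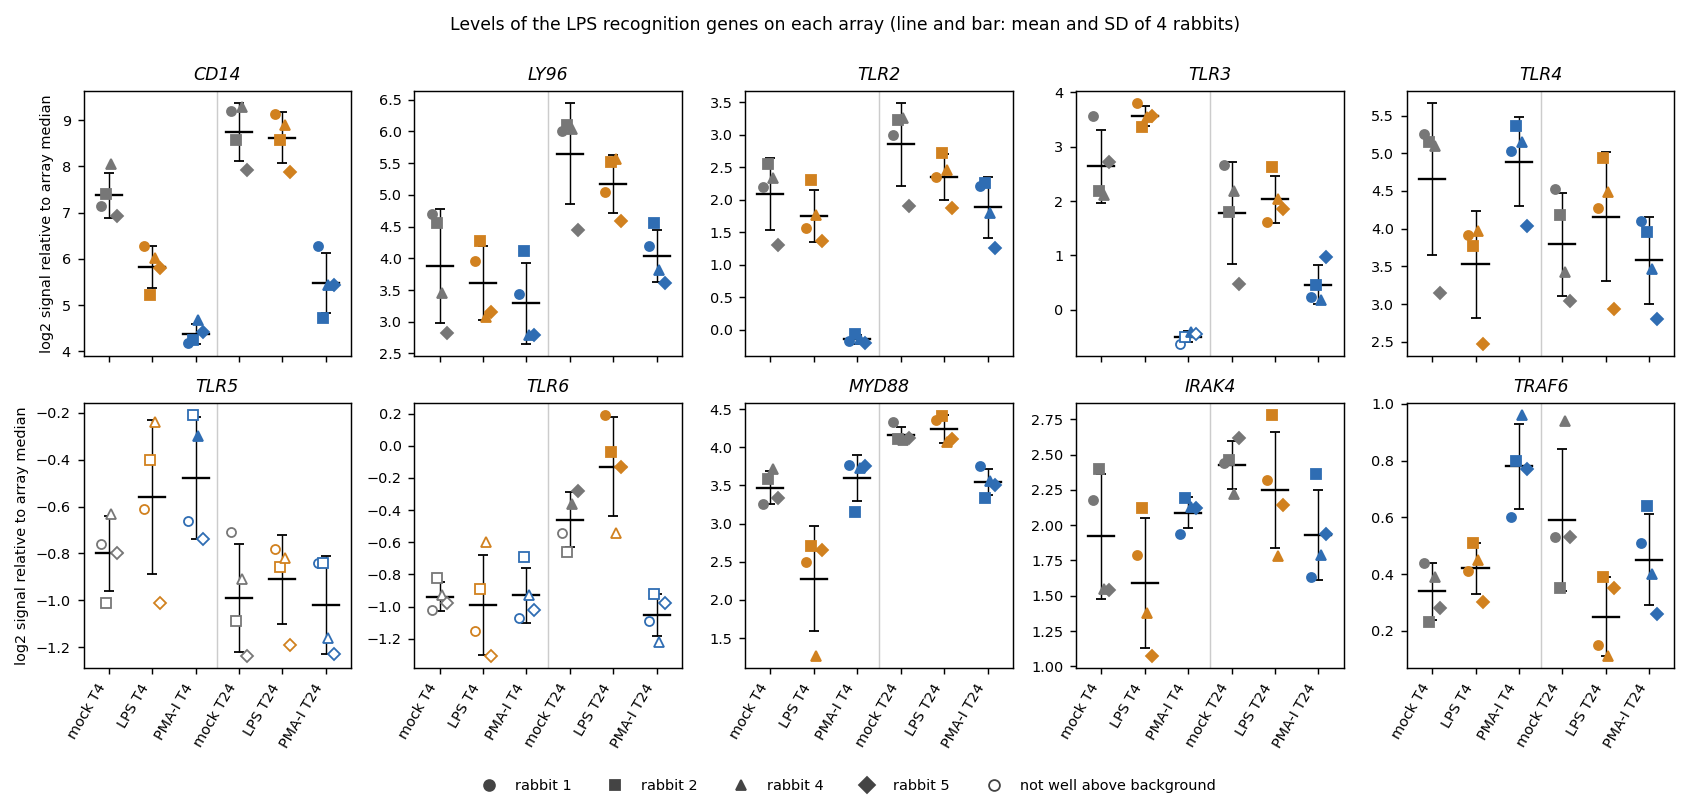
Level of each of the 10 genes (log2 signal relative to the array median, y axis) in the 6 groups (x axis), 1 point per array, with open symbols where not most probes of the gene were well above background and lines and bars for the mean and SD of 4 rabbits. CD14 was highest in mock- and LPS-stimulated cells at T24 and lowest under PMA-Ionomycin at T4, and TLR2 and TLR3 were near or under the array median only under PMA-Ionomycin at T4 among the groups at that time.

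**Figure D2:**
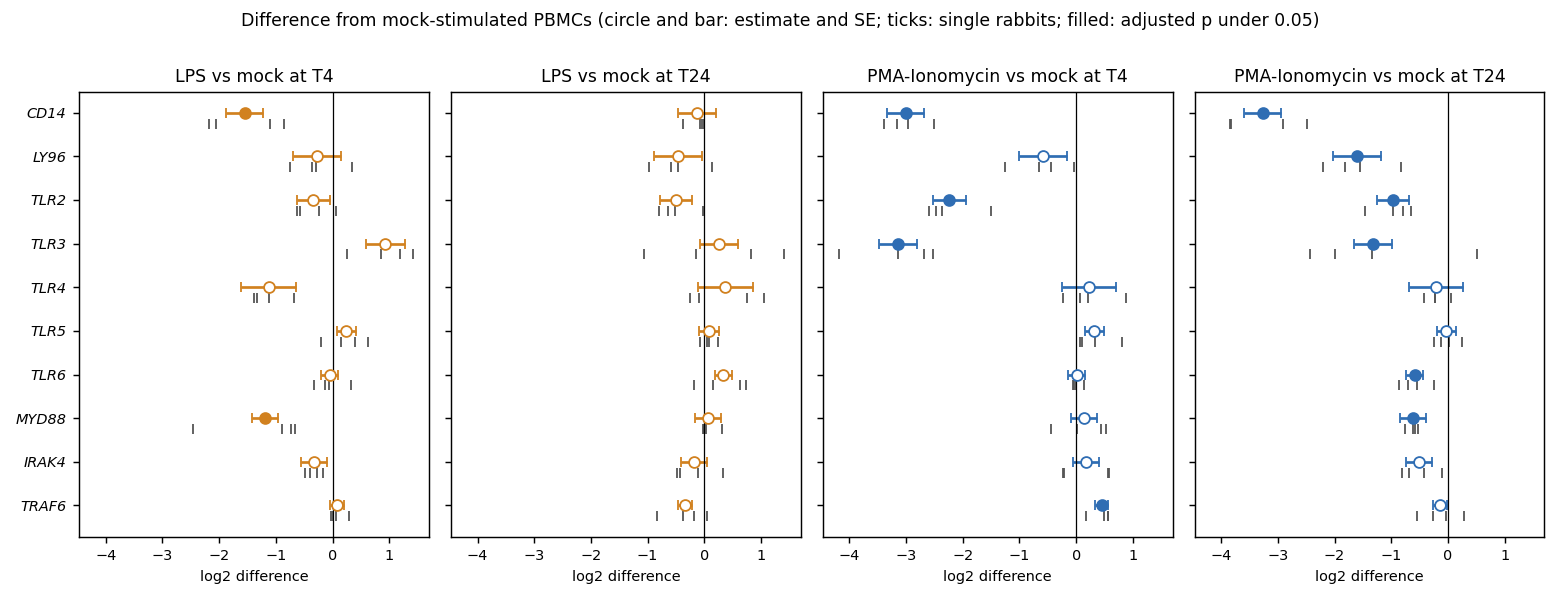
Log2 difference from mock-stimulated cells of the same time (x axis) for the 10 genes, with 1 panel per stimulation and time, the limma estimate with its SE, small ticks for the single rabbits and filled symbols for DE genes. Filled symbols mark 2 genes in the panel of LPS at T4, 0 in that at T24, and 4 and 6 in the panels of PMA-Ionomycin.

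CD14 fell under both stimulations at T4, and only PMA-Ionomycin held it low at T24 among the comparisons with mock. In rabbits 1, 2, 4 and 5, its level was 7.14, 7.40, 8.06 and 6.92 in mock-stimulated cells at T4. It was 6.29, 5.22, 6.01 and 5.81 with LPS and 4.18, 4.24, 4.67 and 4.41 with PMA-Ionomycin. The 3 groups at T4 did not overlap, and their order, mock above LPS above PMA-Ionomycin, was the same in each animal. The difference with LPS ranged from -2.18 to -0.86 between rabbits (adjusted p = 0.0373, limma), and with PMA-Ionomycin CD14 fell 8.03-fold (log2 difference -3.01 ± 0.33 SE, adjusted p = 3.31e-07).
At T24 the levels were 9.20, 8.57, 9.28 and 7.93 in mock-stimulated cells and 9.14, 8.57, 8.90 and 7.88 with LPS, so these groups lay on top of each other. With PMA-Ionomycin they were 6.29, 4.73, 5.44 and 5.44, below every other array at that time and 9.65-fold under mock (log2 difference -3.27 ± 0.33 SE, adjusted p = 3.19e-08). CD14 also rose with time in culture alone, by 2.58-fold from T4 to T24 in mock-stimulated cells (adjusted p = 0.00664, limma). In the order of the 6 group means, mock at T24, LPS at T24 and mock at T4 overlapped as neighbours, LPS at T4 lay below them and overlapped with PMA-Ionomycin at T24, and PMA-Ionomycin at T4 was lowest and stood apart.
On the 3 slides, the CD14 difference with LPS at T4 was -1.70, -1.60 and -1.35, and that with PMA-Ionomycin was -2.46, -3.19 and -3.22 at T4 and -2.31, -4.47 and -3.13 at T24. The call with LPS at T4 was lost without rabbit 2 (log2 difference -1.34, adjusted p = 0.223, limma) and without rabbit 4 (-1.38, adjusted p = 0.463), and it missed the threshold from the scanner's processed signal (-1.34, adjusted p = 0.118), with quantile normalisation (-1.42, adjusted p = 0.0597), with normexp background correction (-1.42, adjusted p = 0.0641), from the deposited table (-1.54, adjusted p = 0.0521) and with only the arrays compared (adjusted p = 0.227). In mock-stimulated cells the rise with time was lost without rabbit 1 (1.13, adjusted p = 0.0628).

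LY96, the co-receptor that holds the lipid part of LPS in the TLR4 complex, fell only with PMA-Ionomycin at T24 among the comparisons with mock. Its level was 6.01, 6.10, 6.03 and 4.45 in mock-stimulated cells at T24, 5.04, 5.51, 5.56 and 4.59 with LPS, and 4.19, 4.55, 3.82 and 3.61 with PMA-Ionomycin. PMA-Ionomycin was lower in each of the 4 rabbits, though the groups overlapped because rabbit 5 was low in mock. The fall was 3.05-fold (log2 difference -1.61 ± 0.42 SE, adjusted p = 0.00395, limma), with -1.05, -1.46 and -2.39 on the 3 slides, and it missed the threshold without rabbit 4 (-1.41, adjusted p = 0.0525).
At T4, LY96 was 4.70, 4.56, 3.45 and 2.82 in mock-stimulated cells, 3.95, 4.27, 3.08 and 3.16 with LPS and 3.44, 4.12, 2.79 and 2.79 with PMA-Ionomycin. The differences of -0.27 (adjusted p = 0.806, limma) and -0.59 (adjusted p = 0.416) were not DE. LY96 was lower than in mock in 3 of 4 rabbits with LPS and in 4 of 4 with PMA-Ionomycin. With the rabbit as a block the adjusted p was 0.612 and 0.082. In mock-stimulated cells LY96 rose 3.4-fold from T4 to T24, by 1.31 to 2.58 on the log2 scale per rabbit (adjusted p = 0.00543), a call lost without rabbit 4 (1.49, adjusted p = 0.0993) and with only the arrays compared (adjusted p = 0.0565).

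Other monocyte genes moved in the same comparisons. CSF1R, the receptor for the growth factor of monocytes and macrophages, and SPI1, a myeloid transcription factor, fell with LPS at T4 (log2 differences -1.44 and -1.13, adjusted p = 0.0492 and 0.0253, limma), the 2 of 9 monocyte markers that were DE there, where 0.97% of all genes fell. Both calls were lost without rabbit 2, without rabbit 4 and with only the arrays compared, where 0 genes were DE with LPS at T4. With LPS at T24, when CD14 and LY96 were not DE, 2 of 9 fell as well, CLEC7A (-2.65) and MPEG1 (-2.17), against 0.582% of all genes. With PMA-Ionomycin 3 of 9 fell at T4 and 8 of 9 at T24, against 9.35% and 11.5% of all genes, led at T24 by CYBB, the catalytic subunit of the phagocyte oxidase (log2 difference -4.81). In mock-stimulated cells 7 of 9 rose from T4 to T24, against 7.41% of all genes. The summed level of the 9 markers, in which the brightest, CD68, weighs most, was 3.86 to 4.99 with LPS and 4.45 to 5.39 with PMA-Ionomycin at T4, and 6.49 to 7.69 and 4.93 to 5.58 at T24. By most of their probes, MPEG1 was not well above background with PMA-Ionomycin at T4, nor were VCAN and CLEC7A at T24. Neutrophils are largely removed by a ficoll gradient, but 4 of 7 of their markers were higher at T24 than at T4 in mock-stimulated cells, against 7.41% of all genes. At T24, 4 of 7 were lower with PMA-Ionomycin and 2 of 7 with LPS (CAMP -1.92 and MPO -1.63), against 11.5% and 0.582% of all genes. Of those lower with PMA-Ionomycin, CAMP and LTF were, by most of their probes, not well above background there. Their summed level was that of MMP9 almost alone and is not given. The part of monocyte or neutrophil number in the CD14 and LY96 differences was not tested.

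**Figure D3:**
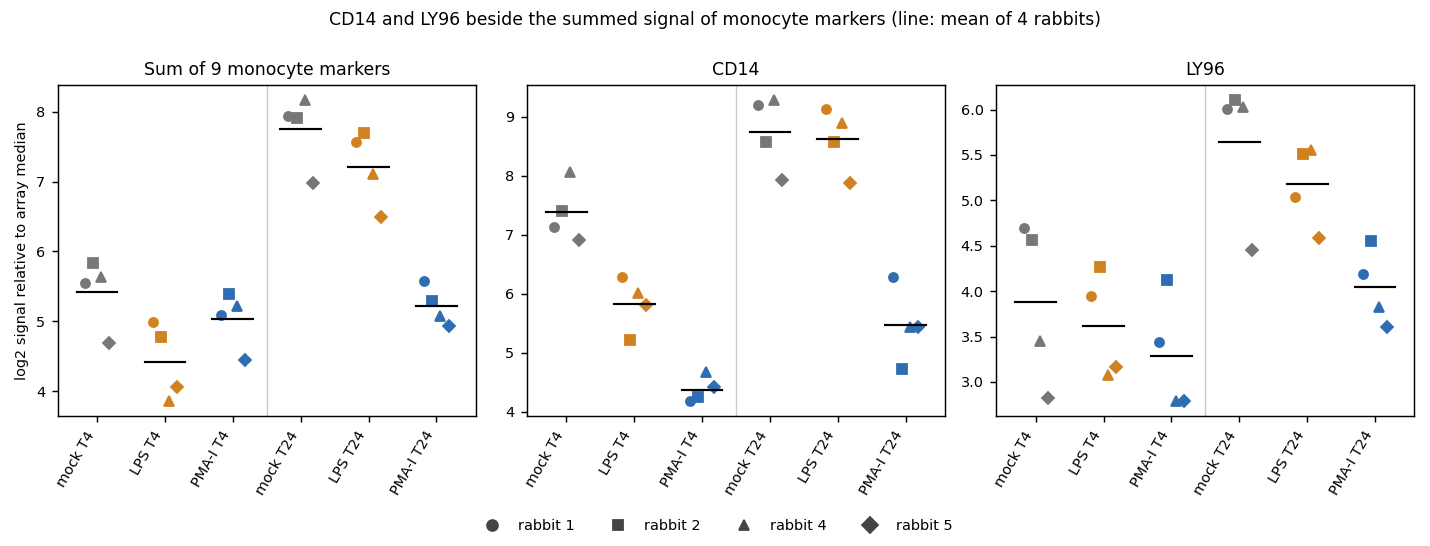
Summed log2 level of 9 monocyte markers, CD14 and LY96 (y axes, relative to the array median) in each array of the 6 groups (x axis). The marker sum was 6.98 to 8.16 in mock-stimulated cells at T24 and 4.93 to 5.58 with PMA-Ionomycin, and CD14 and LY96 were also lower in the second group.

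TLR4, the signalling receptor for LPS, was not DE against mock in any of the 4 comparisons. With LPS at T4 its level was nonetheless lower in each rabbit, at 3.91, 3.77, 3.97 and 2.47 against 5.26, 5.15, 5.09 and 3.15 in mock-stimulated cells. The difference was -1.13 ± 0.48 SE (adjusted p = 0.279, limma), with -1.38 to -0.68 between rabbits. Rabbit 5 was low in both groups, and with the rabbit as a block the SE was 0.2 and the difference passed the test (adjusted p = 0.0142), as it did without rabbit 5 (-1.28, adjusted p = 0.0345). On the 3 slides, which carried different rabbits of each group, the difference was 0.62, -1.20 and -1.96.
With PMA-Ionomycin at T4, TLR4 was 5.03, 5.36, 5.15 and 4.03, overlapping with mock, and it was higher than with LPS in each rabbit (log2 difference 1.36 ± 0.48 SE, 2.57-fold, adjusted p = 0.039, limma). At T24 it was 4.53, 4.18, 3.43 and 3.04 in mock-stimulated cells, 4.27, 4.94, 4.49 and 2.94 with LPS, and 4.10, 3.95, 3.47 and 2.80 with PMA-Ionomycin. All neighbours in the order of the 6 groups overlapped. TLR4 was lower at T24 than at T4 in mock-stimulated cells of all 4 rabbits (log2 difference -0.87 ± 0.48 SE, adjusted p = 0.312, and 0.00427 with the rabbit as a block), whereas CD14 and LY96 rose over the same time. The call against LPS at T4 was lost without rabbit 1 (1.45, adjusted p = 0.1), rabbit 2 (1.29, adjusted p = 0.143) or rabbit 4 (1.42, adjusted p = 0.144), with quantile normalisation (1.00, adjusted p = 0.155), with normexp (0.97, adjusted p = 0.172), from the processed signal (1.06, adjusted p = 0.126) and without the PMA-Ionomycin array of rabbit 2 (1.21, adjusted p = 0.0992).

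TLR2, the receptor for lipopeptides, fell steeply with PMA-Ionomycin at T4 and less at T24. It was 2.19, 2.54, 2.33 and 1.3 in mock-stimulated cells at T4, 1.57, 2.30, 1.76 and 1.36 with LPS, and -0.18, -0.06, -0.15 and -0.21 with PMA-Ionomycin. All PMA-Ionomycin arrays lay below all others at that time, and the animals were close together there (SD 0.07, n = 4). The fall was 4.73-fold (log2 difference -2.24 ± 0.29 SE, adjusted p = 3.3e-06, limma).
At T24 TLR2 was 3.0, 3.23, 3.25 and 1.90 in mock-stimulated cells, 2.35, 2.71, 2.45 and 1.87 with LPS, and 2.21, 2.26, 1.80 and 1.25 with PMA-Ionomycin. The groups overlapped through rabbit 5, the lowest of the 4 rabbits for TLR2 in 6 of 6 groups, while each rabbit was lower with PMA-Ionomycin than with mock. The difference was -0.97 ± 0.29 SE (1.95-fold, adjusted p = 0.0121), with -0.37, -0.74 and -1.71 on the slides and -1.59 from the processed signal, and it was lost without rabbit 1 (-1.03, adjusted p = 0.0584) and rabbit 4 (-0.80, adjusted p = 0.14). LPS gave -0.34 at T4 and -0.50 at T24 (adjusted p = 0.639 and 0.6).

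One of the 3 TLR2 probes, at chr15:9919537-9919596 on the plus strand, was not well above background on any array. It is shown because the gene average rests in part on it.
TLR2, dim probe: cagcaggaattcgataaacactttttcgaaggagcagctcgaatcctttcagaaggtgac
With PMA-Ionomycin at T4 this probe gave a log2 difference of -0.08, while the other probes gave -3.45 and -3.19. At T24 it gave -0.43, and the others gave -1.27 and -1.20. The differences of the gene average are therefore smaller than those of the probes with signal.

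TLR6, the partner of TLR2 for diacylated lipopeptides, was measured near background, with its probe at chr2:28246020-28246079 (minus strand) well above it on 5 of the 24 arrays. These 5 were 2 mock-stimulated and 3 LPS-stimulated arrays, all at T24. TLR6 was -0.54, -0.66, -0.36 and -0.28 in mock-stimulated cells at T24, 0.19, -0.04, -0.54 and -0.13 with LPS and -1.09, -0.92, -1.22 and -0.98 with PMA-Ionomycin. The last group lay below both others without overlap. Since it had no signal well above background, its fall is a bound of at least 1.41-fold under mock (adjusted p = 0.0034, limma) and at least 1.77-fold under LPS (adjusted p = 2.83e-05). At T4 the 3 group means were between -0.99 and -0.93, and no array was well above background. The rise of mock-stimulated cells from T4 to T24 was at least 1.28-fold (adjusted p = 0.0406), and leaving out any 1 of the rabbits ended that call (adjusted p = 0.0691 to 0.197).

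TLR3, the endosomal receptor for double-stranded RNA, fell with PMA-Ionomycin at T4 and less at T24, and was not DE with LPS. Both of its probes lie side by side on the plus strand of chromosome 2, at chr2:63540571-63540630 and chr2:63540632-63540691, and are shown because each gave the fall on its own.
TLR3, first probe: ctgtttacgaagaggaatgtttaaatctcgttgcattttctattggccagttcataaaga
TLR3, second probe: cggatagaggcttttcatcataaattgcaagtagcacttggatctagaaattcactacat
At T4 TLR3 was 3.56, 2.18, 2.12 and 2.71 in mock-stimulated cells, 3.81, 3.37, 3.54 and 3.57 with LPS and -0.63, -0.50, -0.41 and -0.45 with PMA-Ionomycin. It fell 8.81-fold with PMA-Ionomycin (log2 difference -3.14 ± 0.34 SE, adjusted p = 2.82e-07, limma). One probe was then still well above background on 3 of 4 arrays and the other on 1 of 4, so the size of the fall is uncertain, and it was -5.08 from the processed signal. With LPS it was higher in 4 of 4 rabbits, by 0.25 to 1.42, but the difference of 0.93 ± 0.34 SE was not DE (adjusted p = 0.194). Against LPS the log2 difference at T4 was -4.07 ± 0.34 SE (adjusted p = 5.39e-09), under the same limit, and -6.33 from the processed signal.
At T24 TLR3 was 2.66, 1.80, 2.18 and 0.47 in mock-stimulated cells, 1.61, 2.63, 2.04 and 1.86 with LPS and 0.23, 0.46, 0.18 and 0.97 with PMA-Ionomycin. It was lower with PMA-Ionomycin in 3 of 4 rabbits and higher in rabbit 5. The fall was 2.49-fold (log2 difference -1.32 ± 0.34 SE, adjusted p = 0.00382), with -1.10, -2.21 and -1.23 on the slides, and it was lost without rabbit 4 (-1.09, adjusted p = 0.0742).

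TLR5, the flagellin receptor, was well above background on 1 array, that of rabbit 4 with PMA-Ionomycin at T4. Its group means lay between -1.02 and -0.48 and all neighbours in their order overlapped. No comparison passed the test, and its levels cannot be read beyond background on the other arrays.

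MYD88, the adaptor shared by TLR2, TLR4, TLR5 and TLR6, fell with LPS at T4 and with PMA-Ionomycin at T24. Its level at T4 was 3.25, 3.59, 3.72 and 3.33 in mock-stimulated cells, 2.5, 2.70, 1.26 and 2.66 with LPS and 3.77, 3.15, 3.73 and 3.76 with PMA-Ionomycin. The LPS arrays were all below the others, with rabbit 4 well under the remaining rabbits. That array of rabbit 4 had the lowest share of spots well above background of the 24 (51.4%), and the PMA-Ionomycin array of rabbit 2 at T4, the low one of its group, had the next lowest (52.6%). The part of this in the MYD88 values was not tested. The fall was 2.28-fold (log2 difference -1.19 ± 0.23 SE, adjusted p = 0.0214, limma), with -0.62, -2.23 and -1.01 on the slides. Without rabbit 4 it was -0.77 (adjusted p = 0.344), and the call was also lost without rabbit 1 (-1.34, adjusted p = 0.0515) and rabbit 2 (-1.29, adjusted p = 0.198), from the processed signal (-1.10, adjusted p = 0.078) and with only the arrays compared (adjusted p = 0.227).
At T24 MYD88 was 4.33, 4.11, 4.10 and 4.12 in mock-stimulated cells and 4.36, 4.41, 4.07 and 4.11 with LPS, which did not differ beyond their spread (log2 difference 0.07, adjusted p = 0.986). With PMA-Ionomycin it was 3.75, 3.34, 3.56 and 3.51, without overlap with either. This fall was even, -0.76 to -0.53 per rabbit (log2 difference -0.62 ± 0.23 SE, 1.54-fold, adjusted p = 0.0353, and -1.06 with quantile normalisation), and was lost without rabbit 1 (-0.64, adjusted p = 0.121), rabbit 2 (-0.57, adjusted p = 0.119) or rabbit 5 (-0.63, adjusted p = 0.108). MYD88 rose 1.61-fold with time in mock-stimulated cells (adjusted p = 0.0455), a call lost without rabbit 1 (0.56, adjusted p = 0.33), rabbit 2 (0.75, adjusted p = 0.101) or rabbit 5 (0.66, adjusted p = 0.162), with quantile normalisation (0.59, adjusted p = 0.0622), with normexp (0.58, adjusted p = 0.0615), from the processed signal (0.58, adjusted p = 0.148), with the slide as a block (0.66, adjusted p = 0.07) and with a trended robust variance (adjusted p = 0.0518).

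IRAK4, the kinase recruited by MYD88, was not DE in any comparison as the average of its probes. Its group means ran from 1.59 with LPS at T4 to 2.43 in mock-stimulated cells at T24, and all neighbours in that order overlapped. With PMA-Ionomycin at T24 it was 1.63, 2.36, 1.79 and 1.94 against 2.44, 2.46, 2.22 and 2.62 in mock-stimulated cells, a log2 difference of -0.51 ± 0.23 SE (adjusted p = 0.101, limma). That difference passed with the rabbit as a block (adjusted p = 0.0263), with quantile normalisation (-0.73, adjusted p = 0.0181), from the processed signal (-0.94, adjusted p = 0.00983), with normexp (-0.68, adjusted p = 0.0207), from the deposited table (-0.64, adjusted p = 0.0268), with only the arrays compared (adjusted p = 0.0397) and without rabbit 2 (-0.64, adjusted p = 0.027). The 4 IRAK4 probes disagreed elsewhere. The one at chr8:2530137-2530323, which spans an intron and was the dimmest, passed for the difference of the LPS effect between times (1.17, adjusted p = 0.0276) and for PMA-Ionomycin against LPS at T4 (0.90, adjusted p = 0.000681) and at T24 (-0.93, adjusted p = 0.000308), and none of the other probes passed there.

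TRAF6, the ubiquitin ligase below IRAK4, was the only one of the 10 that rose with PMA-Ionomycin at T4. It was 0.44, 0.23, 0.39 and 0.28 in mock-stimulated cells, 0.41, 0.51, 0.45 and 0.30 with LPS and 0.60, 0.80, 0.96 and 0.77 with PMA-Ionomycin. The last group lay above both others, by 0.17 to 0.57 per rabbit over mock (log2 difference 0.45 ± 0.12 SE, 1.36-fold, adjusted p = 0.00805, limma), with 0.60, 0.36 and 0.38 on the slides. It missed the threshold without rabbit 2 (0.41, adjusted p = 0.0523). At T24 TRAF6 was 0.53, 0.35, 0.94 and 0.53 in mock-stimulated cells and 0.51, 0.64, 0.40 and 0.26 with PMA-Ionomycin, which overlapped, and with LPS it was 0.15, 0.39, 0.11 and 0.35 (log2 difference -0.34 ± 0.12 SE, adjusted p = 0.243, and -0.17 without rabbit 4).
The probes of TRAF6 adjoin each other on the minus strand of chromosome 1, at chr1:175769038-175769097 and chr1:175768978-175769037, and are shown because their calls differed.
TRAF6, first probe: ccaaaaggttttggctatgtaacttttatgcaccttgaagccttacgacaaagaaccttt
TRAF6, second probe: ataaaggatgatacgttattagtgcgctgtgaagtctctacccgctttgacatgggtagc
With PMA-Ionomycin at T4 one of them gave a log2 difference of 0.56 (adjusted p = 0.00407, limma) and the other 0.33 (adjusted p = 0.0597). A pair of further probes that are identical to a TRAF6 probe over all 60 bases but carry other identifiers gave 0.44 ± 0.13 SE and 0.37 ± 0.11 SE (adjusted p = 0.014 and 0.021).

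**Figure D4:**
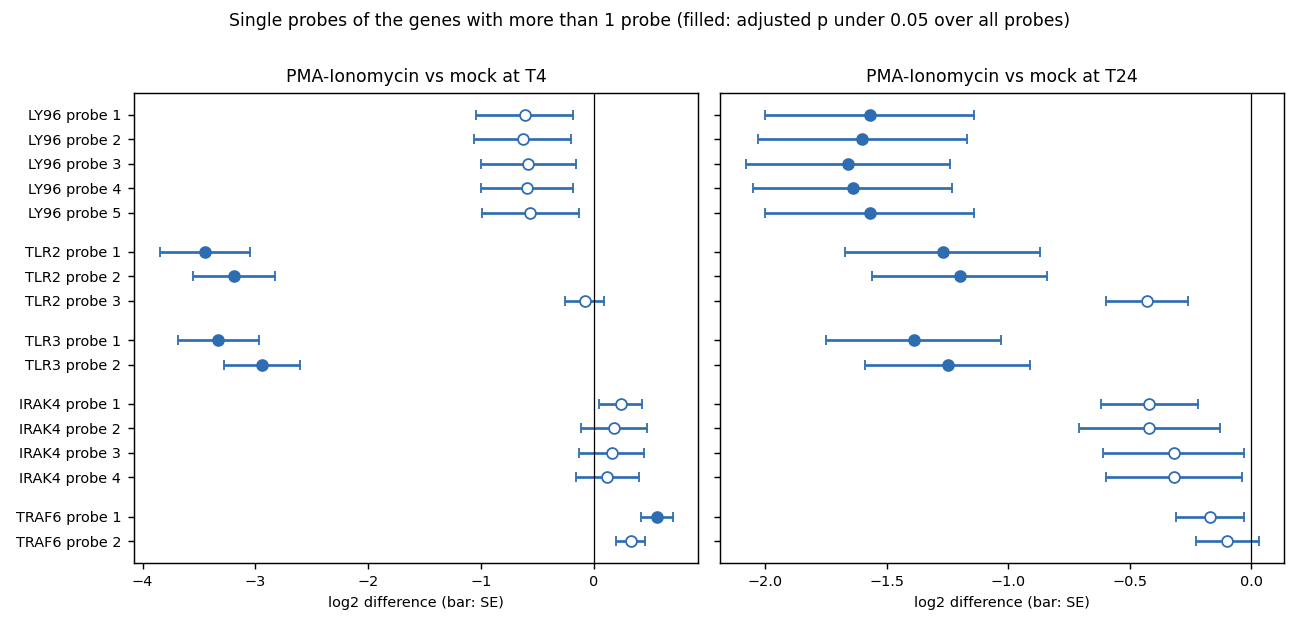
Log2 difference from mock-stimulated cells with PMA-Ionomycin at T4 and T24 (x axis) for every single probe of LY96, TLR2, TLR3, IRAK4 and TRAF6, with limma SE. The 5 LY96 probes at T24 lie between -1.66 and -1.57, the TLR3 probes at T4 are at -3.33 and -2.94, and the dim TLR2 probe at -0.08 stands apart from the others.

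The stimulation effects differed between the times for several genes when the difference itself was tested, as the effect at T24 minus that at T4. For LPS this was MYD88 alone among the 10 (1.26 ± 0.32 SE, adjusted p = 0.0398, limma), where 1.95% of all genes passed, and 1.71% did so upwards, and leaving out any 1 of the rabbits ended the call (0.87 without rabbit 4, adjusted p = 0.155), as did the processed signal (adjusted p = 0.0937), the deposited table (adjusted p = 0.0524) and a fit of only the arrays compared (adjusted p = 0.0827). CD14 gave 1.43 ± 0.47 SE (adjusted p = 0.116, and 0.0262 with the rabbit as a block) and TLR4 gave 1.5 ± 0.68 SE (adjusted p = 0.274, and 0.00712 with the block). For PMA-Ionomycin 4 of 10 passed, where 22.5% of all genes did, 14.4% upwards and 8.15% downwards. With dim probes left out it was 3 of 8 for PMA-Ionomycin against 39.4% of the genes tested, and 1 of 8 for LPS against 4.7%. The fall of TLR2 and TLR3 was weaker at T24, by 1.27 ± 0.42 SE (adjusted p = 0.0281) and 1.82 ± 0.49 SE (adjusted p = 0.00753), while TRAF6 gave -0.58 ± 0.17 SE (adjusted p = 0.0149). From the processed signal the TLR3 value was 3.14 and that of TRAF6 -1.0, and with dim probes left out that of TLR2 was 2.09. TLR6 also passed (adjusted p = 0.0471), but in 3 of the 4 groups compared it was not well above background on any array, so its value of -0.60 has no readable size. CD14 gave -0.27 (adjusted p = 0.824), so that its fall was not shown to differ between the times, and LY96 gave -1.01 ± 0.60 SE (adjusted p = 0.283, and 0.0325 with the block). The TLR2 value lost its call without rabbit 1 (1.17, adjusted p = 0.188), rabbit 2 (1.16, adjusted p = 0.109) or rabbit 4 (1.36, adjusted p = 0.106), with quantile normalisation (1.09, adjusted p = 0.0545) and with normexp (0.96, adjusted p = 0.0718).
The call was also lost for TLR3 without rabbit 5 (1.21, adjusted p = 0.0681), TRAF6 without rabbit 4 (-0.41, adjusted p = 0.157) or rabbit 5 (-0.53, adjusted p = 0.0938), and TLR6 without any 1 of the rabbits (-0.67 to -0.52, adjusted p = 0.0977 to 0.13).

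**Figure D5:**
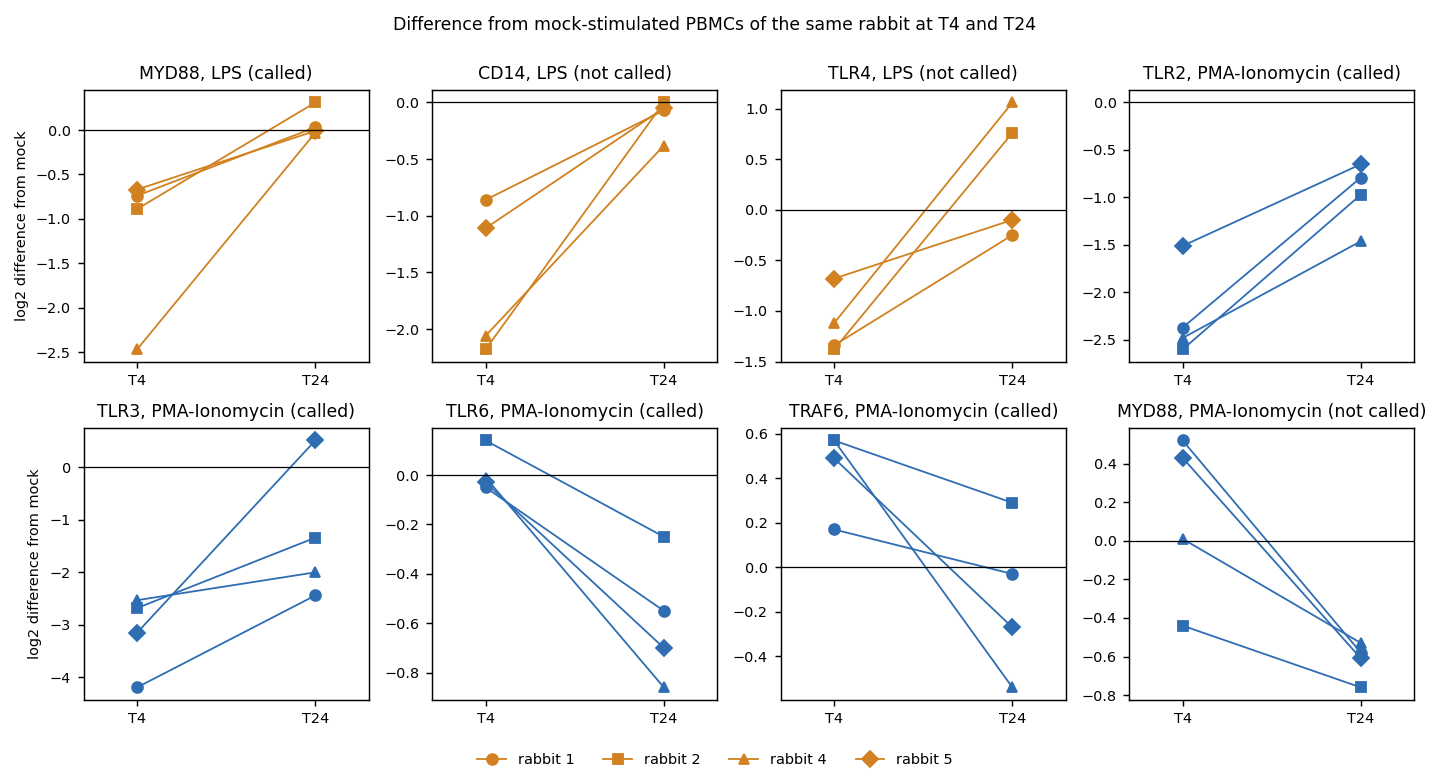
Per-rabbit log2 difference from mock-stimulated cells (y axis) at T4 and T24 (x axis), with 1 line per rabbit, for MYD88, CD14 and TLR4 with LPS and TLR2, TLR3, TLR6, TRAF6 and MYD88 with PMA-Ionomycin. All 4 lines of MYD88 with LPS run upwards, as do those of TLR2 and TLR3 with PMA-Ionomycin.

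The stimulations were also compared with each other. At T4, PMA-Ionomycin was above LPS for TLR4, MYD88 and TRAF6 and below it for CD14, TLR2 and TLR3, so that 6 of 10 were DE against 26.7% of all genes (17.7% higher and 9.04% lower), or 6 of 8 against 45.4% with dim probes left out. MYD88 differed 2.5-fold (adjusted p = 7.64e-05, limma) and CD14 2.74-fold (adjusted p = 0.0017). At T24, 5 of 10 were lower with PMA-Ionomycin and 0 higher, against 36.1% of all genes in either direction and 12.5% lower, or 4 of 8 against 59.5% with dim probes left out. CD14 differed 8.85-fold at that time (adjusted p = 4.95e-08) and TLR3 2.98-fold (adjusted p = 0.000671). The TRAF6 call at T4 (0.37) was lost without any 1 of the rabbits (0.32 to 0.42, adjusted p = 0.0518 to 0.136) and with other scalings (0.25 with normexp, adjusted p = 0.105). At T24 the LY96 call was lost without rabbit 1 (-1.23, adjusted p = 0.0944), rabbit 2 (-1.19, adjusted p = 0.0612) or rabbit 4 (-0.93, adjusted p = 0.21), and that of MYD88 without rabbit 1 (-0.72, adjusted p = 0.0686), rabbit 2 (-0.57, adjusted p = 0.119) or rabbit 5 (-0.73, adjusted p = 0.0522).

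Among 10 further receptors and LPS-binding genes measured, 1 was lower with LPS at T4, against 0.97% of all genes. It was ITGB2, the common beta chain of the leukocyte integrins (log2 difference -1.40, adjusted p = 0.0208, limma). In rabbits 1, 2, 4 and 5 its difference was -0.75, -1.35, -2.47 and -1.02. The LPS array of rabbit 4 at T4 had the lowest share of spots well above background. Without rabbit 2, without rabbit 4 or with only the arrays compared, 0 genes were DE with LPS at T4, so the ITGB2 call was lost there. At T24, 0 of the 10 were DE with LPS by limma, against 1.22% of all genes, and NOD1 alone had an unadjusted p under 0.05 (0.0426). With PMA-Ionomycin at T4, TLR10 fell 14.8-fold (log2 difference -3.89, adjusted p = 1.93e-10), from 3.26 to 3.91 in mock-stimulated cells to between -0.47 and -0.18, and was at 3.08 to 3.74 with PMA-Ionomycin at T24. At T4 its probes were well above background on 3 and 2 of the 4 stimulated arrays, which leaves the size of that fall uncertain. TLR1, the other partner of TLR2, fell at least 1.41-fold at T4 (adjusted p = 0.00178). That made 2 of 10 lower and 0 higher at T4, against 9.35% and 13.5% of all genes. At T24, ITGB2 fell (-1.52) and NOD1, a cytosolic peptidoglycan sensor, rose (0.60). The scavenger receptor CD36 was also called lower there (adjusted p = 0.0277), with 1 of its 3 probes well above background on 1 of the 4 stimulated arrays and the others on 0, so no fold is given. These were 2 of 10 lower and 1 higher, against 11.5% and 22.1% of all genes.

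Of 19 other adaptors and kinases, 1 fell with LPS at T4, RIPK1 (-0.79, adjusted p = 0.0337, limma), against 0.97% of all genes. Without rabbit 2, without rabbit 4 or with only the arrays compared, 0 genes were DE with LPS at T4, so the RIPK1 call was lost there. With PMA-Ionomycin at T4, 4 rose and 0 fell, against 13.5% and 9.35% of all genes. These 4 included MAP2K3, a kinase of p38 (1.25), UBE2N, the ubiquitin-conjugating enzyme that works with TRAF6 (0.79), and IRAK1, a substrate of IRAK4 (0.65). At T24 5 rose and 5 fell, against 22.1% and 11.5% of all genes, with MAP2K3 (1.55) and UBE2N (1.11) among the first and IKBKE (-1.36) and RIPK1 (-1.34) among the second.
Of 4 negative regulators, 1 was higher with LPS at T24, against 0.637% of all genes. IRAK3, an inhibitory kinase relative that holds back IRAK signalling, rose with LPS at T24 (log2 difference 0.95 ± 0.17 SE, 1.93-fold, adjusted p = 0.00307) at a time when none of the 10 recognition genes was DE. It fell with PMA-Ionomycin at both times (-1.20 and -1.91, adjusted p = 9.01e-06 and 3.51e-09), though at T24 it was then well above background on 1 of 4 arrays, which leaves the size of the later fall uncertain. With PMA-Ionomycin at T4 1 of the 4 rose, TOLLIP (0.40, adjusted p = 0.0399), and 1 fell, IRAK3, against 13.5% and 9.35% of all genes. At T24 3 of 4 were called lower, against 11.5% of all genes. They were IRAK3, NFKBIA, the inhibitor of NF-kB (-1.51, adjusted p = 0.0039), and SARM1, which was not well above background in either group. Of 6 cytokines that LPS induces, 4 were higher with LPS at T24, against 0.637% of all genes, among them IL6 (4.73, adjusted p = 0.000603) and IL1B (4.16, adjusted p = 0.00428), and 0 were DE at T4, where IL6 and TNF had an unadjusted p under 0.05 (0.00181 and 0.00316). IL6 at T4 was 3.5 to 6.78 in mock-stimulated cells and 6.61 to 8.91 with LPS. From T4 to T24 in mock-stimulated cells 5 of the 6 fell, all but IL10, against 5.13% of all genes. Mean IL6 went from 5.39 to 2.42 in mock-stimulated cells and from 7.94 to 7.15 with LPS. Mean IL1B went from 9.25 to 5.45 and from 8.79 to 9.61. The differences at T24 thus include the fall of mock-stimulated cells.
B cell markers moved beside the PMA-Ionomycin results, with 3 of 6 lower at T4 and 4 of 6 at T24, against 9.35% and 11.5% of all genes, and their summed level was 6.25 to 7.47 and 6.73 to 7.89 in those groups. Platelet markers were lower too, 3 of 4 with PMA-Ionomycin at T4 (ITGB3 -2.44) and 3 of 4 from T4 to T24 in mock-stimulated cells (ITGB3 -2.83), against 9.35% and 5.13% of all genes, and their summed level was 3.44 to 4.38 in mock-stimulated cells at T4, 1.86 to 2.71 with PMA-Ionomycin at T4 and 1.64 to 1.91 in mock-stimulated cells at T24. Of 9 T cell markers 1 was higher with PMA-Ionomycin at T4, against 13.5% of all genes, and 1 was higher and 1 lower at T24, against 22.1% and 11.5%. The one called lower, CD4, was by most of its probes not well above background in either group. The part of these cells in the members' differences and of B cells in the TLR10 and TLR3 differences was not tested.

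As a description over the 24 arrays, which share 4 animals and 6 groups, the genes whose levels ran most like CD14 were LAPTM5 (Pearson r = 0.955), TMEM50A (0.954) and CYBB (0.934). Those most like TLR3 were SP100 (0.897), IFIH1 (0.894), a cytosolic sensor of double-stranded RNA, and TRIM14 (0.884). LY96 ran most like RNF13 (0.955), TLR2 like WASHC3 (0.971), and TRAF6 like CD84 (0.878). TLR4 and IRAK4 had no close match, with r of at most 0.779 (HAPSTR1) and 0.76 (CD9). Among the 10 genes themselves, CD14 and TLR2 were most alike (0.798), then LY96 and TLR2 (0.771) and CD14 and LY96 (0.737).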

How the data were processed

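RNA of PBMC cultures was hybridised to Agilent 1-colour arrays, 1 array per rabbit, stimulation and time (24 arrays). The authors deposited the intensity of each spot (median, mean, local background and processed signal), extracted with Agilent Feature Extraction 10.7.3.1 per the submitters' processing notes, with probe positions on oryCun2. They also deposited a log2 table, which is the same median signal in log2, centred on each array's mean.

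The main values were log2 median signals minus the array median, without control spots and outlier spots. Spots of a probe and then probes of a gene were averaged, giving 42089 probes and 28870 genes. Symbols came from RefSeq accessions (11506 probes), gene numbers (8929), the study's list of added genes (460, TLR5 among them) or gene names in the files (81), and 21113 probes had none. The mOryCun1.1 RefSeq table served for names only. Groups were taken from the labels. All 24 arrays were fitted with 1 mean per group in limma 3.58.1 (R 4.3.3), without pairing, as in the study's methods, with Benjamini-Hochberg adjustment over all genes and a threshold of 0.05. Figures were drawn with matplotlib 3.10.9.

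Replicate numbers name the same animals. Deviations from the group means of arrays of the same rabbit had a median r of 0.228 over 60 pairs. It was -0.0746 over 180 pairs of different rabbits in different groups. Deviations within a group sum to 0, so the second value depends on the first and is no separate reference. A gene counted as not measured in a group where none of its probes was well above background on any array there, and its fold is then given as a bound. For that bound, each array of the dimmer group takes the gene's own signal or the dimmest one that any probe well above background had there, whichever is higher.

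All 10 members are named. Of other lists, the 3 DE genes with the largest log2 difference per comparison are named, and for likeness the 3 genes with the highest r among those well above background on at least 12 arrays, with a selection of them printed. The members and lists were chosen with earlier results of these data known. Alternatives were quantile normalisation, the processed signal scaled to the 75th percentile, normexp with an offset of 50, the deposited table, kept outlier spots, dim probes left out, single probes, trended robust variance, only the arrays compared, rabbit or slide as a block, and leaving out each rabbit or the PMA-Ionomycin array of rabbit 2 at T4. The number of arrays limits the precision. Some items are not reported here.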

Additional observations from a re-analysis of the deposited data

Results flagged for a closer look

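In 6 of 60 groups of 4 arrays, 1 array lay far from the others, with a gap to its nearest neighbour over the group's range above Dixon's critical value, which chance gives in about 1 of 20 groups. Rabbit 5 was the low array for LY96 in mock-stimulated cells at T24 (0.943, 4.45 against 6.01 to 6.10), and for TLR4 at T4 in mock-stimulated cells (0.921, 3.15 against 5.09 to 5.26) and with LPS (0.865, 2.47 against 3.77 to 3.97). Rabbit 5 was lowest for TLR2 and TLR4 in 6 of 6 groups and for LY96 in 5 of 6. For MYD88, rabbit 4 was low with LPS at T4 (0.859, 1.26 against 2.5 to 2.70), rabbit 2 was low with PMA-Ionomycin at T4 (0.947, 3.15 against 3.73 to 3.77), and rabbit 1 was high in mock-stimulated cells at T24 (0.906, 4.33 against 4.10 to 4.12).

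Stimulation effects that differed between T24 and T4 by the test of that difference were those of PMA-Ionomycin on TLR2 (1.27), TLR3 (1.82), TLR6 (-0.60) and TRAF6 (-0.58), and of LPS on MYD88 (1.26), all on the log2 scale. The TLR6 value has no readable size, since 3 of the 4 groups behind it had no array well above background.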

How the results depend on the processing

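Over 747 alternative values of 47 member results, 640 kept their direction and side of the threshold, 81 lost the call, 26 gained one and 0 reversed. The number of members DE with LPS at T4 was 2, and it was 1 with quantile normalisation, 0 from the processed signal, 1 with normexp, 1 from the deposited table, 0 with only the arrays compared, and 0 to 3 without each rabbit. With LPS 1 member differed between times, against 0 from the processed signal, the deposited table or only the arrays compared, 3 with the rabbit as a replicate block, and 0 to 1 without each rabbit. With PMA-Ionomycin at T24 the count of 6 was 3 to 6 without each rabbit, that of 4 for its difference between times was 1 to 3, and that of 5 against LPS at T24 was 3 to 5. Other alternatives added members. TLR4 joined with LPS at T4 with the rabbit as a block. IRAK4 joined with PMA-Ionomycin at T24 in the alternatives given above. For the difference of PMA-Ionomycin between times, LY96 joined with the block. MYD88 joined there with quantile normalisation, normexp, the processed signal and only the arrays compared, among others. From T4 to T24 in mock-stimulated cells the count of members was 4, 7 with the rabbit as a replicate block, TLR4 among them as a fall, and 1 to 4 without each rabbit. Over all genes, 296 were DE with LPS at T4, 114 with quantile normalisation, 8 from the processed signal, 105 with normexp, 71 from the deposited table, 0 with only the arrays compared, 114 with a trended robust variance, 534 without the PMA-Ionomycin array of rabbit 2 at T4, 1231 with the replicate block, and 119, 0, 0 and 100 without rabbits 1, 2, 4 and 5. With LPS at T24 they were 352, 47 with only the arrays compared, 749 with the replicate block, 109, 85 and 611 without rabbits 2, 4 and 5, and 724 over single probes. For the difference of LPS between times they were 562, 176 from the processed signal, 221 with only the arrays compared, 866 without the PMA-Ionomycin array of rabbit 2 at T4, 1667 with the replicate block, 7, 31 and 184 without rabbits 2, 4 and 5, and 1034 over single probes. From T4 to T24 in mock-stimulated cells they were 3621, and 2325, 2270 and 2368 without rabbits 1, 2 and 4. Single probes, of which more were tested, gave 5799 there, 10005 against 6583 with PMA-Ionomycin at T4, 9951 against 6506 for its difference between times, and 15650 against 10432 for PMA-Ionomycin against LPS at T24. The block changed no member's call beyond those given above and those of TLR2 in mock-stimulated cells (adjusted p = 0.00284) and between stimulations at T24 (0.032), TLR4 between stimulations at T24 (0.0273), the lost TLR6 difference between times (0.051), and IRAK4 between times (0.0468), in mock-stimulated cells (0.0496) and between stimulations at T4 (0.0324), all by limma. CD14, TLR2 and TLR3 with PMA-Ionomycin at T4, and CD14 and TLR6 at T24, passed in every alternative that tested them. TLR5 and TLR6 were not tested where dim probes were left out. Signal over background limits TLR5, TLR6 and, with PMA-Ionomycin at T4, TLR3.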
